A study of Mus musculus with 6 samples.

Results

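The genes described here are those of the epidermal growth factor receptor (EGFR) family that act in skin, with their ligands and 1 regulator. The members are the receptors Egfr, Erbb2 and Erbb3, the ligands Areg, Ereg, Hbegf, Tgfa, Btc and Epgn, and Lrig1, which makes 10 of the 21368 genes that could be named on the arrays. Their probes were found by gene name, through the transcript accession given for each probe, and the list itself was drawn up with earlier results of these data known. All 10 had at least 1 probe. Egfr had 3 probes and Lrig1 had 2, and each gene is represented by its brightest probe, with values of the others given beside it.

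Mouse embryos were taken at embryonic day 16, and their epidermis was compared on 6 arrays of 2 colors, each holding RNA from knockout epidermis in one dye and RNA of a wild-type littermate in the other. A conditional deletion of Sox4 gave Sox4 cKO, one of Sox11 gave Sox11 cKO, and deletion of both genes gave Sox4/11 dcKO (here dcKO), with 2 arrays, from 2 biological replicates, for each genotype. Deletion was by Krt14-Cre, which is active in keratinocytes of the epidermis and its appendages and leaves the dermis, vessels and immune cells undeleted. The labels give the strain as 129SvEx:C57BL/6, and the study's methods describe a founder line that also carried a Sox12 deletion and a Krt14-Cre line on FVB/N. Whether the embryos on the arrays carried the Sox12 deletion, the Cre genotype of the littermates, and whether any wild-type RNA was shared between arrays are not given in the sources used here. The epidermis was peeled from dorsal skin after dispase, so the samples can hold keratinocytes of all layers, melanocytes, Langerhans cells and some dermis, and in such samples fewer cells of a type cannot be told apart from less RNA per cell. Replicate 1 always had its knockout in Cy5, and replicate 2 in Cy3.

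The EGFR family signals at the surface of keratinocytes. The ligands are made as membrane-anchored precursors that are cut free by proteases such as ADAM17, and they bind EGFR, which pairs with itself or with ERBB2 and ERBB3 and turns on the RAS-ERK and PI3K-AKT pathways. In skin this signaling drives keratinocyte proliferation and migration, hair follicle growth and the closing of wounds. LRIG1, a membrane protein of epidermal stem cells, promotes the removal of activated EGFR from the cell surface.

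Every value below is a log2 ratio of knockout over wild type on 1 array, as deposited by the authors, unless a level is named. A level is the normalized log2 intensity of 1 channel, and levels are compared only for the same probe. A gene was called where its adjusted p was under 0.05 and its absolute log2 fold change over 1.5, and it passed where the adjusted p alone was under 0.05. Unless another setting or a left-out array is named, adjusted p-values are Benjamini-Hochberg values over 55681 probes from 1 limma model of all 6 arrays. With 2 arrays for each genotype, only large changes could pass.

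As a check of the labels, 2 Sox4 probes were read. The probe A_55_P2131899 read -1.66 and -2.26 on the Sox4 cKO arrays. It read -1.55 and -1.61 in dcKO and 0.07 and 0.09 where Sox11 alone was deleted. Its knockout channels were not well above background, so only a bound can be given. By this probe the fall of Sox4 was at least 3.24-fold in Sox4 cKO (limma adjusted p = 0.0284), and the dcKO bound was 3.0-fold (limma adjusted p = 0.00223). A bound of this kind sets the mean level of the brighter group against that of the dimmer one. Where a dimmer level lay under the lowest level that counted as well above background in its channel, that lowest level was used instead. The other Sox4 probe, A_55_P2121613, was well above background in every channel and fell short of these bounds, at -0.14 and -0.71 in Sox4 cKO (limma adjusted p = 0.802) and -0.96 and -0.69 in dcKO (limma adjusted p = 0.0768). Where the probes lie relative to the deleted part is not given in the sources used here. The 2 Sox11 probes were not well above background in any knockout channel of Sox11 cKO or dcKO. They were so in at most 1 of 2 wild-type channels, so Sox11 cKO could not be checked on these arrays. The study reports RT-qPCR of Sox4 and Sox11 in the isolated epidermis, done before the arrays to verify their loss. The Sox11 probe A_55_P2094721 read 0.26 and -0.17 in Sox11 cKO, and -0.96 and -0.48 in dcKO, where 1 wild-type channel was well above background and the bound was 1.36-fold (limma adjusted p = 0.196). The other read -0.23 and -0.33 in dcKO. Xist, which marks female cells, was detected above background in the 2 channels of Sox4 cKO replicate 2 and Sox11 cKO replicate 2 and in neither channel of the other 4 arrays. All 6 basal (Krt5, Krt14 and others) and all 6 suprabasal (Krt1, Krt10 and others) keratinocyte markers were well above background in every genotype, as the label epidermis requires. Dermal fibroblast markers were also present, with 6 or 7 of 7 above background, and they differed between the channels of an array. The median of their log2 ratios on replicate 1 and 2 was -1.79 and -1.70 for dcKO, -3.42 and 0.98 for Sox4 cKO, and 1.27 and -0.70 for Sox11 cKO.

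Betacellulin (Btc), a ligand that binds EGFR and ERBB4, was the 1 member that passed against wild type, and it did so in dcKO. The probe A_52_P672689 read 2.39 on replicate 1 and 2.27 on replicate 2 of dcKO. The Sox4 cKO arrays read -0.46 and 0.62, and those of Sox11 cKO 0.39 and 0.29. Both dcKO arrays thus lay above both Sox4 cKO arrays, which fell on opposite sides of 0, while the Sox11 cKO ratios came from channels that were not well above background. In dcKO, Btc was 5.02-fold higher than in wild type (log2 2.33 ± 0.21 SE, n = 2 arrays, limma adjusted p = 0.00158). It ranked at position 66 of all probes by p. Of all probes, 0.207% were called in this comparison and 0.833% passed, and 1 of the 10 members did both. In Sox4 cKO, Btc differed from wild type by 0.08 ± 0.21 (SE, limma adjusted p = 0.975).

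The Btc signal itself was low outside dcKO. In dcKO the knockout channels had levels of 8.80 and 7.78, against 6.41 and 5.52 in the wild-type channels of the same arrays. The raw spot signals behind these were 532 and 188 in the knockout, over local backgrounds of 51 and 30, and 85 and 77 in the wild type, over 35 and 48. On both Sox4 cKO arrays the 2 channels were well above background, with levels of 6.68 and 6.44 in the knockout and 7.13 and 5.82 in the wild type. On both Sox11 cKO arrays neither channel was well above background, so no fold is given there and the ratios of 0.39 and 0.29 measure no difference in Btc. The 4 wild-type levels that were well above background ran from 5.52 to 7.13, and both dcKO knockout levels lay above that range. The rise rests on 1 spot per array, since the array holds no other named Btc probe.

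**Figure D1:**
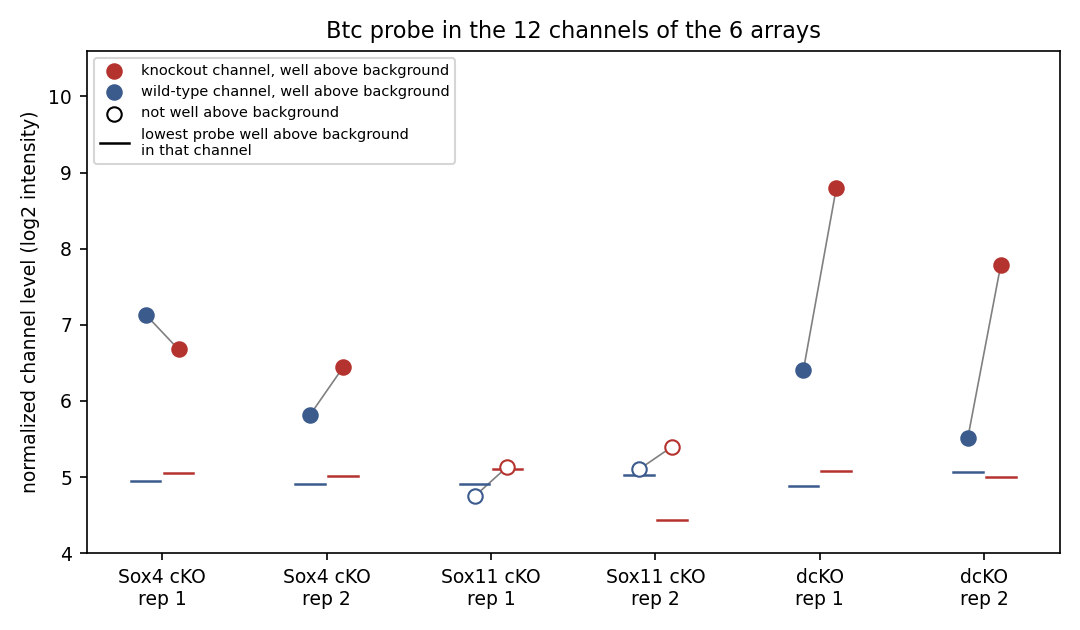
Normalized level (log2 intensity, vertical axis) of the Btc probe in the knockout and wild-type channel of each of the 6 arrays, with filled points well above background, open points not, and short lines at the lowest level well above background in that channel. The knockout channels of dcKO stood at 8.80 and 7.78 over wild-type channels at 6.41 and 5.52, while both channels of the Sox11 cKO arrays were not well above background.

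Set against each other, dcKO and Sox4 cKO differed in Btc. The log2 ratio in dcKO exceeded that in Sox4 cKO by 2.24 (95% confidence interval 1.58 to 2.91, not adjusted for the number of probes, limma adjusted p = 0.035), where 0.147% of all probes passed. This call was lost without Sox4 cKO replicate 1, the array on which Btc read below wild type, where the difference was 1.65 (limma adjusted p = 0.0996), and without dcKO replicate 1 (1.94, limma adjusted p = 0.0514). For Btc the contrasts that involve Sox11 cKO give no difference that can be read, since neither channel of those arrays was well above background. Among the other 9 members 0 passed in limma in dcKO minus Sox11 cKO or in dcKO minus the sum of both single knockouts. In Sox4 cKO minus Sox11 cKO 0 passed as well. The shares of all probes that passed were 0.163%, 0.088% and 0.0018%. In these contrasts 0, 2 and 1 of the 9 had an unadjusted p under 0.05 in limma. In dcKO minus Sox4 cKO 3 of the 10 members did. The share of all probes under that unadjusted cut was not computed for contrasts, so these counts have nothing to be set against.

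**Figure D2:**
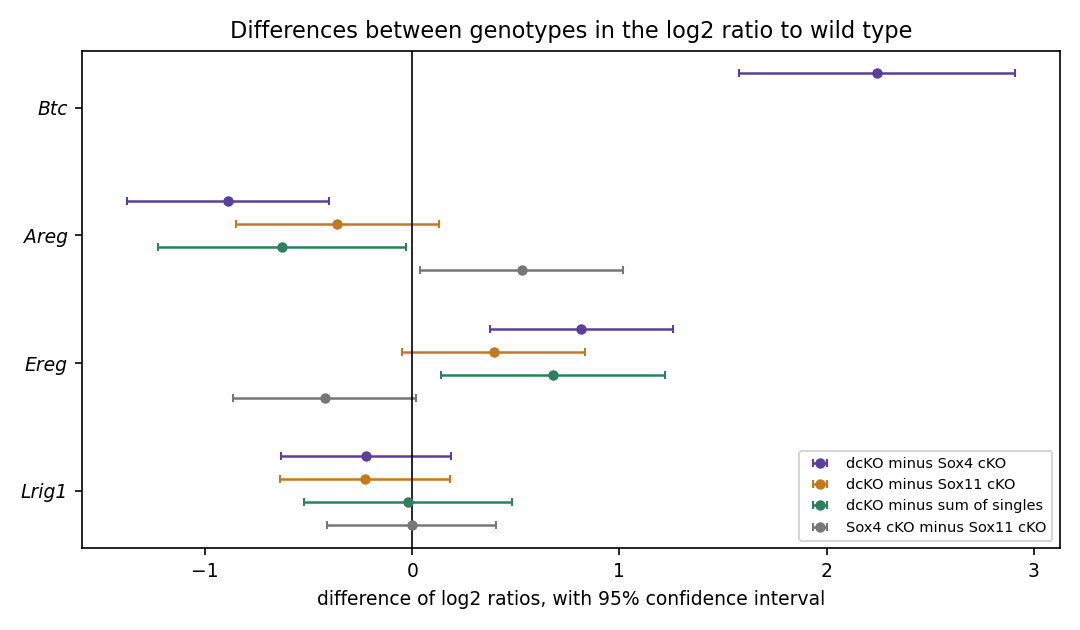
Differences between genotypes in the log2 ratio to wild type (horizontal axis) for Btc, Areg, Ereg and Lrig1, with 95% confidence intervals from the model of all 6 arrays. Btc is drawn for dcKO minus Sox4 cKO alone, at 2.24, since its Sox11 cKO channels were not well above background, and this is the 1 of the 13 contrasts drawn that passed after adjustment over all probes.

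Marker genes of other layers and cell types moved on the same dcKO arrays. Of 7 dermal fibroblast markers, 6 read below wild type on each dcKO array, the list median was -1.90, and 0 passed (limma adjusted p from 0.385 to 0.527). Among them Col1a2, a collagen gene, read -2.05 and -2.01, and Lum, which encodes lumican, read -2.09 and -1.70. The exception was Dcn, the decorin gene and the brightest of the list, at 0.41 and 0.29, so that the summed level of the 7 differed by no more than -0.44 and -0.15 log2. It lay between 12.92 and 13.18 in the dcKO channels and between 13.07 and 13.62 in their wild-type channels. All 6 skeletal muscle markers were fitted below wild type in dcKO, with a median of -0.47, and 0 of them passed (limma adjusted p from 0.512 to 0.925). All 6 periderm markers read below wild type on both dcKO arrays. Their list median was -1.17, and Krt4 (limma adjusted p = 0.0017), Krt17 (limma adjusted p = 0.00507) and Krt19 (limma adjusted p = 0.0177) fell. Their median was -1.51 and -0.58 on the Sox11 cKO arrays. On the Sox4 cKO arrays it was 0.66 and 0.41, with 5 of the 6 above wild type on both. All 6 suprabasal markers read above wild type on both dcKO arrays. Their list median was 0.51, and 0 passed (lowest limma adjusted p = 0.0849). The same 6 also read above wild type on both Sox11 cKO arrays, with a fitted median of 0.52, and 0 passed. By array, their median was 0.19 on replicate 1 and 0.81 on replicate 2 of Sox11 cKO. On the dcKO arrays it was 0.52 and 0.33. In Sox4 cKO their median was 0.06. The 5 hair follicle bud markers did not move one way in dcKO. Their median of 0.09 was the value of Edar, which was not well above background in any dcKO channel. Over the 4 above background the median was -0.20. The summed level of the 5 differed by -0.35 and -0.57 log2 on the dcKO arrays. Among the 5, Sostdc1 fell (log2 -0.79, limma adjusted p = 0.0333), while Shh, dim in most channels, read 0.79 and 0.34. The part of these shifts in the Btc result was not tested.

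Amphiregulin (Areg), a ligand of EGFR that keratinocytes use in autocrine growth, ran the other way in dcKO without passing. It read -0.63 and -0.62 in dcKO. The Sox4 cKO arrays gave 0.53 and 0.00, and the Sox11 cKO arrays 0.07 and -0.59. The dcKO arrays nearly coincided and were the lowest of the 6, with Sox11 cKO replicate 2 next to them. The mean in dcKO was -0.62 ± 0.15 (SE, limma adjusted p = 0.16), a 1.54-fold lower value. The fitted mean was -0.32 without dcKO replicate 1 and -0.93 without dcKO replicate 2, although the array left in read -0.62 or -0.63. With 1 dcKO array left, the dye coefficient comes from the arrays of the other genotypes alone. The gap between these fits is therefore no disagreement of the dcKO arrays. Areg differed between dcKO and Sox4 cKO by -0.89 (-1.38 to -0.40, limma adjusted p = 0.428).

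Epiregulin (Ereg), a ligand of EGFR and ERBB4, read 0.32 and 0.74 in dcKO. Its values were -0.29 and -0.28 with Sox4 deleted alone, and 0.13 and 0.14 with Sox11 deleted alone. Both arrays of a genotype thus lay on the same side in each case, with Sox4 cKO below wild type and the others above it. The mean in dcKO was 0.53 ± 0.14 (SE, limma adjusted p = 0.193), and its difference from Sox4 cKO was 0.81 (0.37 to 1.26, limma adjusted p = 0.41). Neither passed, and the mean in dcKO was 0.73 without dcKO replicate 1 and 0.33 without dcKO replicate 2.

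Areg and Ereg depended on how the signals were prepared. With a normexp offset of 50, both passed in dcKO, Areg at -0.59 (limma adjusted p = 0.0128) and Ereg at 0.50 (limma adjusted p = 0.0171). Both passed as well without background subtraction, Areg at -0.61 (limma adjusted p = 0.0253) and Ereg at 0.52 (limma adjusted p = 0.036). Their folds stayed under the log2 threshold of 1.5 throughout, so neither was called under any alternative.

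Lrig1 was the 1 member that read below wild type on all 6 arrays. Its brighter probe, A_55_P2109997, read -0.44 and -0.43 in dcKO, and -0.13 and -0.28 in either single knockout. The dcKO arrays were the lowest, with a mean of -0.43 ± 0.13 (SE, limma adjusted p = 0.273), while the single knockouts had means of -0.21 and -0.20, both also short of the threshold (limma adjusted p = 0.846 and 0.79). The other Lrig1 probe, A_55_P2105100, read 0.00 and -0.61 in dcKO and 0.23 on Sox11 cKO replicate 1, so the even pattern of the brighter probe was not seen there. Lrig1 passed in dcKO with the offset of 50 (-0.41, limma adjusted p = 0.021).

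The receptors stayed close to wild type. The brightest Egfr probe read 0.09 and -0.30 in dcKO, against 0.13 and -0.29 on the Sox4 cKO arrays and 0.28 and -0.54 on those of Sox11 cKO. In each genotype it was higher on the array with the knockout in Cy5, and its fitted dye coefficient was 0.27 (limma adjusted p = 0.151). The genotype means ran from -0.13 to -0.08, and in dcKO the 95% interval was -0.42 to 0.21. The dimmer Egfr probes had dcKO means of 0.01 and 0.01. One of them, A_55_P1956862, read 0.28 and 0.31 in Sox4 cKO, a mean of 0.30 that did not pass (limma adjusted p = 0.805), and the other, A_55_P1956863, read -0.22 and 0.07 there. Erbb2, the receptor without a ligand of its own, read -0.18 and -0.01 in dcKO, with a mean of -0.09 (-0.38 to 0.19). Erbb3, which has little kinase activity and signals through its partners, read -0.19 and 0.33 in dcKO, with a mean of 0.07 (-0.33 to 0.47). Its probe was dim, with wild-type levels of 5.32 to 5.94, and well above background in 5 of 6 wild-type channels. Small ratios of so dim a probe do not show that expression was unchanged. The 3 receptors had adjusted p-values in dcKO from 0.868 to 0.942 in limma.

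The remaining ligands were also near wild type. Heparin-binding EGF-like growth factor (Hbegf) read 0.19 and -0.15 in dcKO, and epigen (Epgn) read -0.37 and 0.23. Each of these pairs lay on opposite sides of 0. Transforming growth factor alpha (Tgfa) read 0.17 and 0.28 in dcKO and was above 0 on the 5 arrays where a channel was well above background, with a mean in dcKO of 0.22 ± 0.14 (SE, limma adjusted p = 0.645). Tgfa is spotted 10 times on each array, and 7 of its 60 spots carried an outlier mark. The Tgfa probe was also dim, with wild-type levels of 5.10 to 5.92, so its small ratios do not show unchanged expression either.

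Counted over the list, 0 of the 10 members passed in Sox4 cKO, where 0.00539% of all probes did, and 0 passed in Sox11 cKO, where 0% did. At an unadjusted p under 0.05, 0, 0 and 4 members stood out in limma in Sox4 cKO, Sox11 cKO and dcKO, against 6.18%, 7.05% and 9.89% of all probes. The 4 were Btc, Areg, Ereg and Lrig1. In dcKO 5 of the 10 members were fitted above wild type, the median was -0.03, and the median over all genes was -0.01. Both arrays agreed in sign for 6 members in dcKO, against 53.5% of all genes, for 6 with Sox4 deleted alone, against 46.4%, and for 7 with Sox11 deleted alone, against 45.3%, Btc and its undetected channels included. The share of members with 2 arrays on the same side was thus near that of all genes in dcKO.

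**Figure D3:**
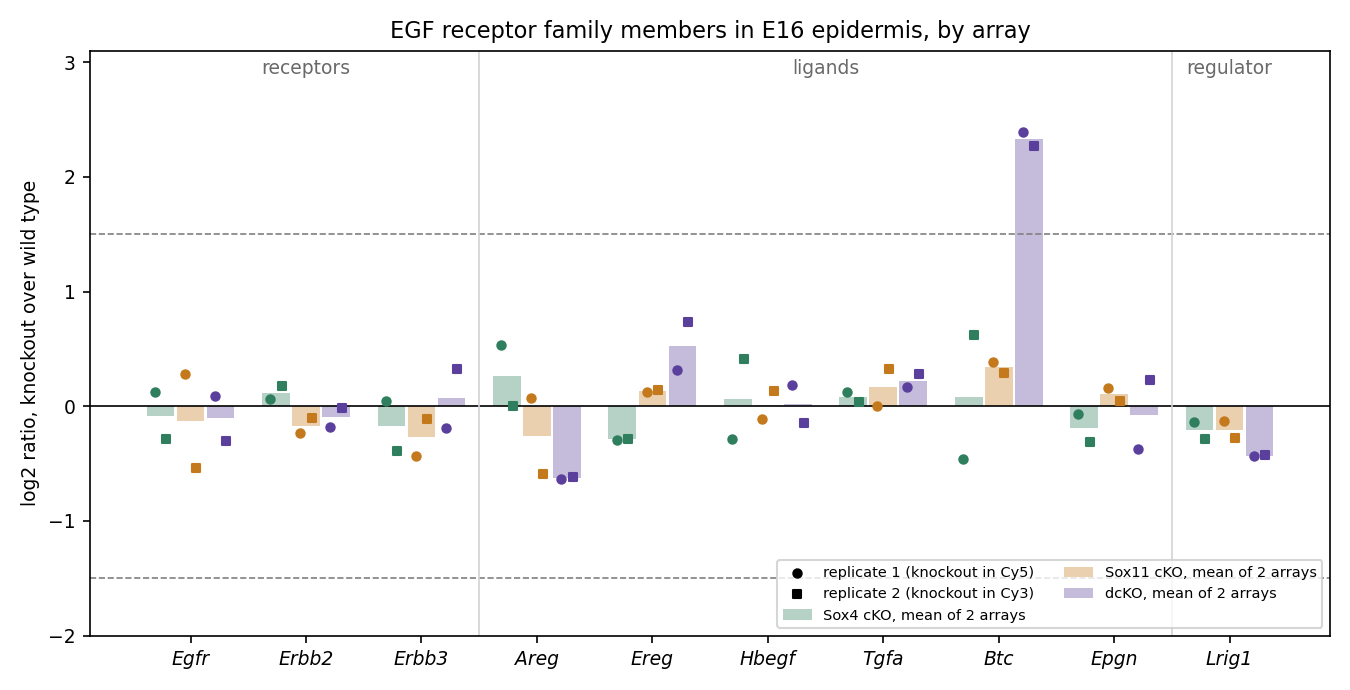
Log2 ratio of knockout over wild type (vertical axis) for the 10 members on each array, with circles for replicate 1, squares for replicate 2, bars for the mean of 2 arrays of a genotype, and dashed lines at the fold threshold of 1.5. Btc in dcKO, at 2.39 and 2.27, is beyond the line, the Btc points of Sox11 cKO come from channels not well above background, and every other point lies between -0.63 and 0.74.

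The genes of 4 ligands lie together on mouse chromosome 5. In the order of protein-coding genes on the assembly GRCm38.p6, Epgn, Ereg, Areg and Btc follow each other directly, between Mthfd2l and Parm1. Along this row the dcKO means were -0.43 for Mthfd2l, -0.07 for Epgn, 0.53 for Ereg, -0.62 for Areg, 2.33 for Btc and -0.04 for Parm1. Btc alone among them passed, and its flank Parm1 stayed at -0.15 and 0.07. The fitted dcKO means of the 4 ligands thus lay on both sides of 0. Epgn, Ereg and Areg did not pass, so no direction is established for them. This look at the neighbors was added after the values had been seen.

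The promoter windows of Btc and Areg are shown because they are the ligands with the lowest p-values in dcKO, they lie next to each other, and they read in opposite directions. Each window holds 250 bases before and 50 after the transcript start in RefSeq, on build GRCm38.p6, and is written 5′ to 3′ along the gene. Btc lies at chr5:91402945-91403244 on the minus strand and Areg at chr5:91139349-91139648 on the plus strand. Capitals mark matches to 5 short motifs, searched on both strands: the SOX core motifs ACAAAG and ACAATG, the TATA box TATAAA, the cyclic AMP response element TGACGTCA and the AP-1 site TGAGTCA.
Btc: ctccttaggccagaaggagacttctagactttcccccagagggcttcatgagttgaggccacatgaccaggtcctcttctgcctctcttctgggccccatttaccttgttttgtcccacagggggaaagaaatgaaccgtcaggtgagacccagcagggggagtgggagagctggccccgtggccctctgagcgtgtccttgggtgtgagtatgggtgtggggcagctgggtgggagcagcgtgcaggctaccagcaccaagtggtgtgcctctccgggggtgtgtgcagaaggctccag
Areg: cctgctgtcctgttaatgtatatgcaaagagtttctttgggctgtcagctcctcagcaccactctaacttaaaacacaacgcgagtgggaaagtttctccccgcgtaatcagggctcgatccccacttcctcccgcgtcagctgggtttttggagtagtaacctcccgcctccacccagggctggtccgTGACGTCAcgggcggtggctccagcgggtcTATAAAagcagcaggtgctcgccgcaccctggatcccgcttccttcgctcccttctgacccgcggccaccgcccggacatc
The Areg window held a cyclic AMP response element that starts 61 bases before the transcript start and a TATA box that starts 31 bases before it, and the Btc window held none of the 5 motifs. Among all 32851 promoter windows in the RefSeq table, 1.79% held the cyclic AMP response element, 13.6% the TATA box, 5.2% the AP-1 site, 18.7% ACAAAG and 12.6% ACAATG. Windows were given for 7 of the 10 members (not for Ereg, Erbb3 and Hbegf). Of these 7, 2 held the TATA box, namely Areg and Epgn, and 0 held either SOX core motif. A motif match is a feature of the letters only, and the absence of one in 300 bases says nothing about binding elsewhere.

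The levels of several ligands varied more between arrays than between genotypes. On Sox11 cKO replicate 2, Areg had levels of 5.99 in the wild-type and 5.4 in the knockout channel, against 8.19 to 10.13 in the other 10 channels. Ereg stood at 6.85 and 7.0 there, against 8.97 to 10.79. Epgn stood at 6.09 and 6.13, against 7.56 to 9.31, and Hbegf at 9.83 and 9.96, against 11.03 to 11.86. In all 4 genes both channels of this array were lower than every channel of the other arrays, and the gap was over 1 log2 unit. Such a gap was seen in 30 of 21360 genes (0.14%), and 4 of the 6 ligands were among them. Both channels were the lowest of the 12, by any margin, in 5 of 6 ligands (Tgfa was the fifth) and 5 of 10 members, against 4.63% of all genes. This array was singled out after its values were seen, and it is also the array whose raw Areg signals were 49 in the knockout and 106 in the wild type, over backgrounds of 34 and 53.

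Between the lowest and the highest wild-type channel, Areg differed 16.8-fold, Ereg 12.2-fold, Epgn 9.35-fold and Hbegf 4.09-fold. For Lrig1 and Erbb2 this range was 1.23-fold and 1.37-fold, and for Egfr it was 1.59-fold, with Sox11 cKO replicate 2 as the highest wild-type level. The knockout and wild-type RNA of an array went down or up together, so the ratios within an array stayed small, at -0.59 for Areg and 0.14 for Ereg on Sox11 cKO replicate 2. Among genes that ERK signaling is known to induce, 5 of 11 were likewise lowest in both channels of this array: Fosl1, an AP-1 subunit, at 5.66 and 5.76 against 8.04 to 9.68 elsewhere, and Fos, Junb, Ier3 and Phlda1. Of 8 ERK feedback genes 3 did so, Spry1, Dusp5 and Dusp6. The other genes with the widest gaps included Lce3c and Serpinb2, which are expressed in the upper epidermis, and the stress-response gene Atf3, named after their values were seen. The Sox11 cKO results for these ligands therefore rest on 1 array with ordinary and 1 with low signals.

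**Figure D4:**
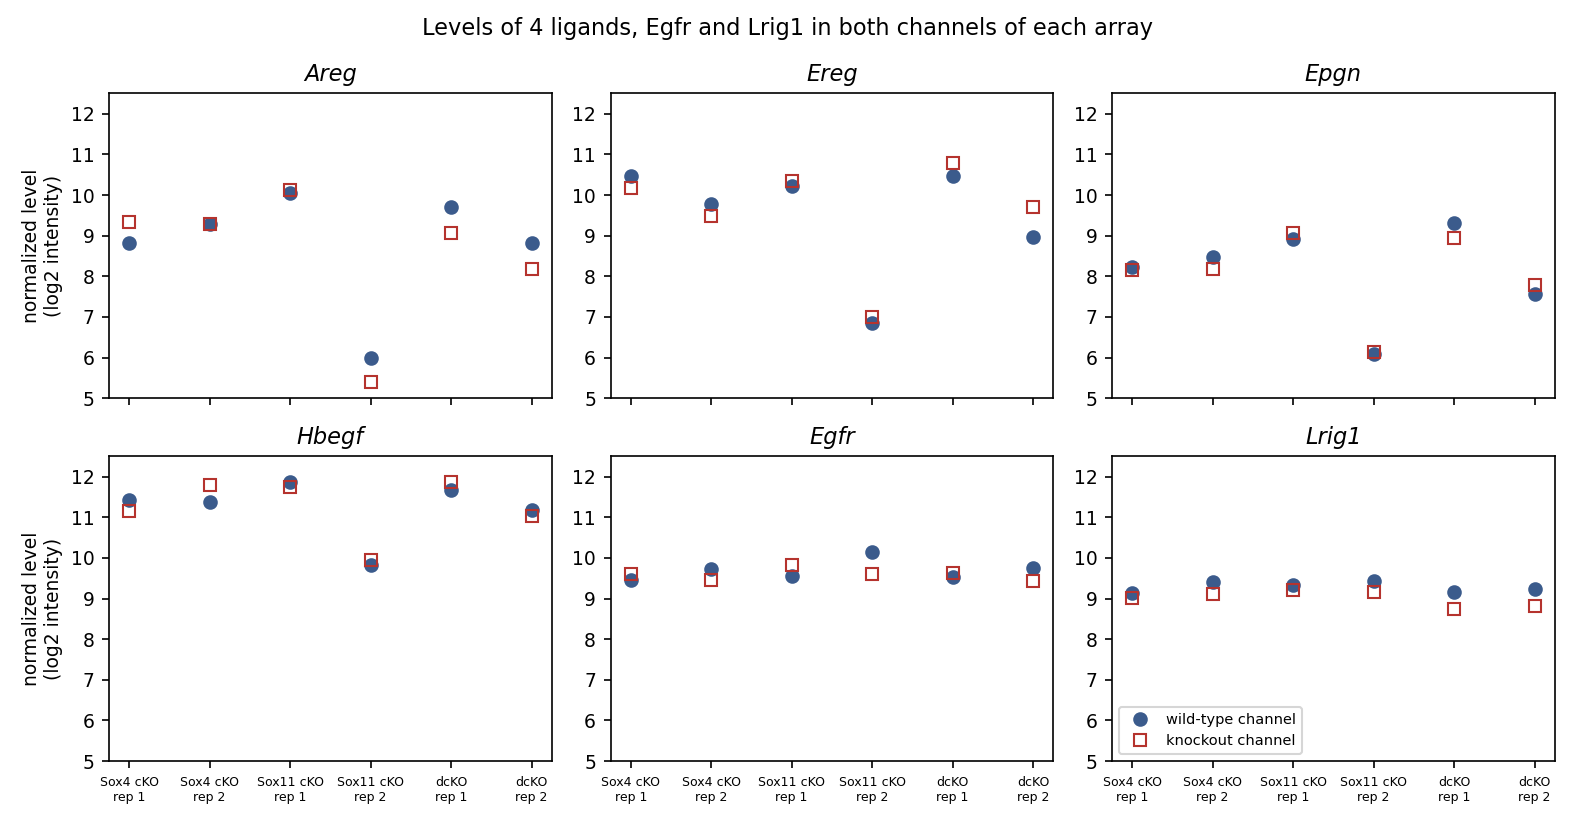
Normalized level (log2 intensity, vertical axis) of Areg, Ereg, Epgn, Hbegf, Egfr and Lrig1 in the wild-type channel (filled circles) and the knockout channel (open squares) of each array. On Sox11 cKO replicate 2 both channels of the 4 ligands fall below all others, to 5.99 and 5.4 for Areg, while Egfr and Lrig1 do not.

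Beyond the members, 60 genes of the pathway were read from lists of 7 functional groups. None passed in limma in any genotype, as against 0.833% of all probes in dcKO, and their median in dcKO was -0.05, with 54 of the 60 above background in at least 1 dcKO channel. Of the 6 relatives outside skin's usual set (Erbb4, Egf and the neuregulins), Nrg4 was the 1 gene well above background in all 4 dcKO channels, and Erbb4, Egf, Nrg1 and Nrg3 were in none of them. Among the 4 genes of ligand shedding (Adam10, Adam17, Rhbdf1 and Rhbdf2) dcKO means ran from -0.20 to 0.21. The 7 receptor brakes ran from -0.31 for Errfi1, an inhibitor of the EGFR kinase that is induced by the pathway, to 0.30 for Lrig2. Of the 16 adaptors and RAS-ERK kinases, the 15 above background ran from -0.16 for Nras to 0.10 for Hras, and Sos1 was not well above background in any dcKO channel.

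A few of these genes came nearer to the threshold. Pik3cb, which encodes a catalytic subunit of PI3-kinase, read 0.67 and 0.65 in dcKO (mean 0.66 ± 0.13 SE, limma adjusted p = 0.0638) and -0.04 and 0.07 on average in Sox4 cKO and Sox11 cKO. Among the ERK response genes, Etv4, a transcription factor of the ETS family, read -0.83 and -0.62 in dcKO (limma adjusted p = 0.0967) and -0.55 and -0.59 in Sox4 cKO (limma adjusted p = 0.785). The study names Etv4 among its direct targets of SOX11 and SOX4, from its own test of dcKO epidermis together with ChIP-seq in keratinocytes. Its list also required lower expression in dcKO keratinocytes, and higher expression at the wound edge and in early embryonic epidermis. The Etv4 mean of -0.72 in dcKO was too small in size to be called here. The study gives its fold cut-off as a log2 value in its methods and as a fold change in a figure legend. Ccnd1, the cyclin D1 gene, read -0.56 and -0.97 in dcKO (limma adjusted p = 0.105) and -0.22 and -1.27 in Sox4 cKO. Etv5, a relative of Etv4, read 0.61 and 0.20 in dcKO (limma adjusted p = 0.355). The ERK response genes thus did not move one way, with 6 of 11 fitted above wild type and a median of 0.11. Of the 8 ERK feedback genes, Spry4 was not well above background in any dcKO channel. The other 7 were fitted between -0.18 for Spred1 and -0.0013 for Dusp5, but the arrays disagreed for most. Of the 8, 1 read below wild type on both dcKO arrays and 1 above it on both. Dusp6 read 0.60 and -0.76, and Spred1 -0.55 and 0.19.

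**Figure D5:**
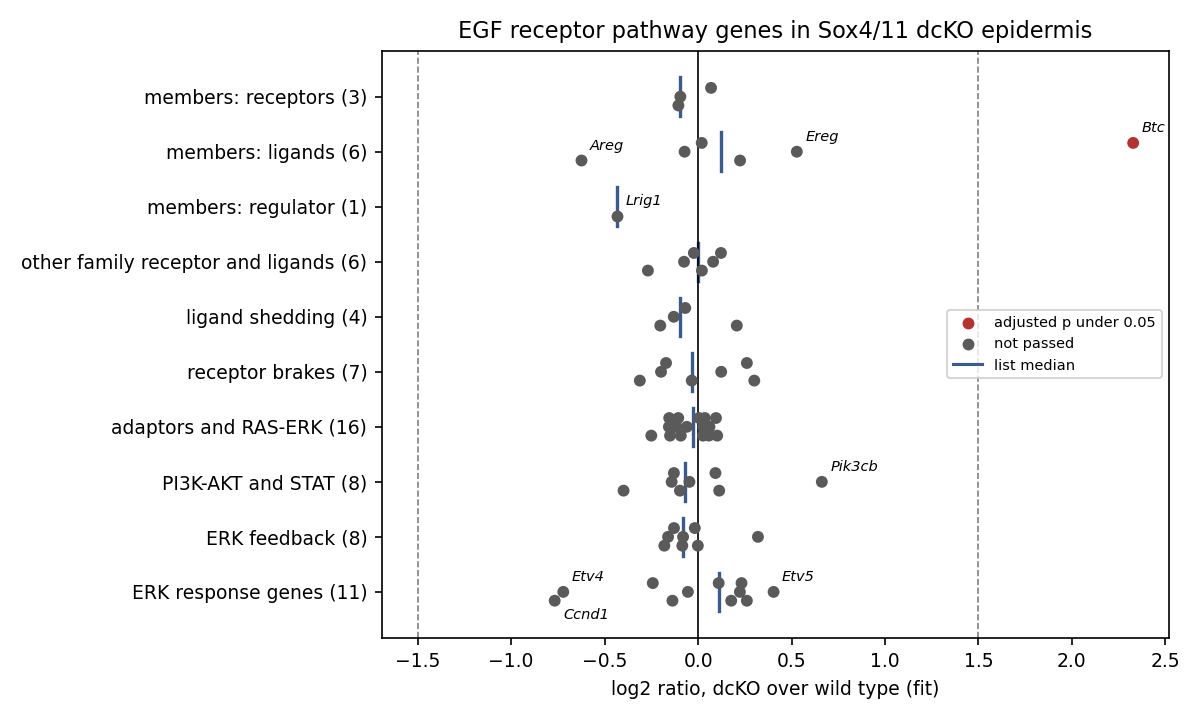
Log2 ratio of dcKO over wild type from the model (horizontal axis) for the members and the 60 other pathway genes by group, with the number of genes in brackets, a blue line at each group's median and dashed lines at the fold threshold of 1.5. Btc, at 2.33, is the 1 gene that passed, and the others lie between -0.77 and 0.66, among them 6 genes that were not well above background in dcKO.

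For the 3 members with the lowest p in dcKO, the genes most alike across the 6 arrays were sought among 11159 or 11158 genes well above background in at least 1 channel of every array. For Btc the nearest were Ctsl (r = 0.99), Oser1 (r = 0.99), Cldn12 (r = 0.99), Ginm1 (r = 0.987) and Piezo1 (r = 0.983). These r values are over 6 arrays, of which the dcKO pair lies far from the others for Btc. On the Sox11 cKO arrays the Btc ratios came from channels not well above background. The named genes are the highest among all those searched, so high r values over 6 arrays can arise from the search alone, and no r was tested. The dcKO means of the genes nearest to Btc ranged from 0.16 for Cldn12 to 0.91 for Ctsl (limma adjusted p = 0.0216), which encodes the protease cathepsin L. For Areg the nearest included Tk2 (r = 0.997), Dcp1b (r = 0.997), Ppox (r = 0.989) and Nr2f2 (r = 0.986), with dcKO means from -0.34 to -0.09. For Ereg they were Ttc39b (r = 0.987), Nkain1, Csgalnact1, Ankrd44 and C1qb (r = 0.975), with dcKO means from 0.26 to 0.50. None of the genes named for Areg and Ereg passed in dcKO.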

How the data were processed

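RNA of peeled epidermis (25 ng per sample) was amplified, labeled with Cy3 or Cy5 and hybridized by the authors to Agilent mouse 8 × 60K arrays, all 6 on 1 slide read in 1 scan, so a slide effect could not be fitted. The deposited scanner files, from Agilent Feature Extraction 11.0.1.1, hold median spot intensities with local backgrounds, not normalized, and log10 ratios of Cy5 to Cy3, which the authors' software had background-subtracted and dye-normalized. The deposited series table holds log2 ratios of knockout over wild type, which the authors made with normexp (offset 16) and loess in limma. Against values recomputed here from the scanner files, its slope was 0.9999 to 1.0001 and its correlation at least 0.9999, so the color correction by ComBat named in the study's methods is not in it. No spot was saturated (0), and by channel, 38.9% to 43.6% of the spots that were not controls rose well above background. The number of arrays limits the precision.

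The table was fitted with limma 3.58.1 in R 4.3.3 over 55681 non-control probes, with a coefficient for each genotype and one for the dye. The dye coefficient is also the replicate block, since replicate 1 always had the knockout in Cy5. Same-numbered arrays deviated together (r = 0.259 to 0.328 over probes), so the block was kept. The script was tested on simulated data. Channel levels came from the scanner medians after normexp, loess and Aquantile. Probes were named through their transcript accessions in a RefSeq table of GRCm38.p6, which named 28331 probes. For members all 10 were named. In other lists, genes that passed and otherwise the 2 with the lowest p in dcKO were named, and further names were chosen after their values were seen. Among the genes most like Areg, 1 is not reported here. Members, lists and tests were chosen with earlier results of these data known. 12 alternatives were set, of which ComBat could not be run. Removal of the color effect with limma's removeBatchEffect took its place and was chosen after seeing the data. Nothing in the labels tells whether a replicate was 1 embryo or a pool, so p-values measure the spread between these samples.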

Additional observations from a re-analysis of the deposited data

Results flagged for a closer look

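Btc differed between genotypes under the same contrast with wild type. Its log2 ratio was 2.24 higher in dcKO than in Sox4 cKO (limma adjusted p = 0.035), with both dcKO arrays above both Sox4 cKO arrays.

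The wild-type level of Areg on Sox11 cKO replicate 2, at 5.99, stood apart from the other 5 wild-type channels, which began at 8.81. The gap was 0.692 of the whole range of the 6 channels, over Dixon's 95% limit for 6 samples. For Hbegf the same channel stood at 9.83 against a next lowest of 11.17, a gap of 0.662 of the range. Chance alone marks about 1 in 20 such groups, and 10 genes were examined. Ereg (0.584), Tgfa (0.512) and Epgn (0.458) had their lowest wild-type channel on the same array, short of the limit. The knockout channel of that array was low with the wild-type channel for all 5 ligands.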

How the results depend on the processing

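Btc stayed higher in dcKO under all 11 alternatives other than leaving out an array, at 1.84 to 3.08, and when each array was left out, at 2.02 to 2.64, with 1 exception to the call. With the Feature Extraction log ratio 0 members were called in dcKO (Btc at 3.08, limma adjusted p = 0.262) and 0 passed in dcKO minus Sox4 cKO, but there 0 of 55681 probes passed, and 5154 had a ratio of 0 on all 6 arrays. In dcKO minus Sox4 cKO, where 1 member (Btc) passed, 3 passed with an offset of 50 and 0 after scaling the arrays, 0 with the filter on dim probes and 0 after removing the color effect with removeBatchEffect. In dcKO minus Sox11 cKO, where 0 passed, 1 did with an offset of 50 and 1 without background subtraction, which also gave 1 for dcKO minus the sum of both singles. These were Btc, whose Sox11 cKO channels were not well above background, so they measure no difference. With no replicate block the counts of members were unchanged in all 7 comparisons, with 1 called in dcKO (Btc, limma adjusted p = 0.00184), 1 passed against Sox4 cKO (limma adjusted p = 0.0485) and 0 against Sox11 cKO, but 270 probes in all passed in dcKO against 464. Over all probes 1376 passed with the offset of 50, 1105 without background subtraction, 814 after removeBatchEffect, 167 without dcKO replicate 1 and 265 without dcKO replicate 2. The causes were not tested. Members near 0 changed sign: Erbb3 in Sox4 cKO (0.078) and Hbegf in dcKO (-0.0081) with the Feature Extraction ratio, and Egfr in Sox4 cKO (0.047) with the mean of its probes.

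Leaving out an array gave 0 to 1 members in each of the 3 contrasts with dcKO. It turned the sign of Egfr in Sox4 cKO (-0.18 to 0.016), Sox11 cKO (-0.34 to 0.075) and dcKO (-0.21 to 0.0037), Erbb3 in Sox4 cKO (-0.60 to 0.26) and dcKO (-0.22 to 0.36), and Hbegf in Sox4 cKO (-0.31 to 0.44), Sox11 cKO (-0.015 to 0.038) and dcKO (-0.38 to 0.42). It also turned Tgfa in Sox4 cKO (-0.073 to 0.24), Epgn in Sox4 cKO (-0.43 to 0.052), Sox11 cKO (-0.040 to 0.25) and dcKO (-0.46 to 0.32), and Btc in Sox4 cKO (-0.51 to 0.68) and in Sox4 cKO minus Sox11 cKO (-0.85 to 0.33), where Btc was dim in Sox11 cKO. None of these passed in any setting. A lone array left in a genotype is assumed to vary like the others. Its fitted value also depends on a dye coefficient estimated from the arrays of the other genotypes, so it can differ from what that array read.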
